A study of Mus musculus with 9 samples.

Results

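Chromatin remodellers use ATP to slide, evict or exchange nucleosomes, and they fall into families named after their motor subunits. The genes described here are 41 remodeller genes other than the ATPase and core subunits of BAF, the mammalian SWI/SNF complex, out of 19698 genes measured in mouse 3T3 fibroblasts. They were chosen by symbol and not by a threshold on measured values, although earlier results of these data were known. They were 18 accessory BAF subunits, 6 genes of the ISWI family, 8 of the CHD family, 4 of the INO80/SWR family and 5 other SNF2 family motors. Each symbol was represented by the transcript cluster of highest mean signal among those that the array annotation assigns to that symbol alone, and all 41 had such a cluster.

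BAF is built on a single motor, either Brg1 or Brm, around which core and accessory subunits assemble. Accessory subunits define the variants of the complex: the ARID1 and DPF proteins mark canonical BAF, Arid2, Pbrm1, Brd7 and Phf10 mark PBAF, and Brd9 and Bicral mark the non-canonical form. ISWI motors space nucleosomes in evenly ordered arrays, CHD motors work in transcribed genes or in the repressive NuRD complex, and INO80/SWR complexes exchange histone variants.

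Expression was compared among 3 groups of 3 arrays. The first was unstimulated control fibroblasts, and the second was control fibroblasts given mouse TNF-α at 5 ng/ml for 1 h. The third was fibroblasts given the same TNF-α treatment while stably expressing a hairpin RNA against a sequence common to Brg1 and Brm, the BAF motors encoded by Smarca4 and Smarca2. That hairpin came from a U6 promoter in a retroviral vector that also expresses GFP, and cells were sorted for high GFP, so the BAF-knockdown cells were made with 1 hairpin and sorted. Whether the replicates came from separate transductions is not stated. Differences between these cells and the control cells that do not come from the hairpin cannot be told apart from the knockdown. Knockdown cells without TNF-α were not analysed here. In cell populations such as these, fewer expressing cells and less RNA per cell cannot be told apart either.

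Levels are RMA log2 signals, on which a difference of 1 is a 2-fold change, and differences are followed by the standard error of the limma fit. A gene was called at a Benjamini-Hochberg adjusted p under 0.05 over all 19698 genes. Replicates were made on different days and arrays of the same replicate number deviated together from their group means, so a second fit with the replicate number as a block is given as the blocked value where it changes a call.

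The labels were checked on genes outside the 41. Smarca4 stood at 11.66, 11.56 and 11.63 on the unstimulated control arrays, at 11.62, 11.53 and 11.56 on the TNF-treated control arrays, and at 10.50, 10.64 and 10.25 on the knockdown arrays. It was called lower in the knockdown. Smarca2 stood at 9.51, 9.81 and 9.39 on TNF-treated control arrays and at 9.12, 9.38 and 9.12 on knockdown arrays, without overlap and lower within each number, after 9.18, 9.94 and 9.22 on unstimulated arrays. The knockdown difference was -0.36 ± 0.20 (1.29-fold) and was called in neither fit (limma adjusted p = 0.734, blocked 0.129). The study also measured both transcripts by quantitative RT-PCR and reports that the hairpin lowered each. Nfkbia, Tnfaip3, Ccl2 and Cxcl1, early targets of TNF-α, were all called higher after TNF-α in control cells. The 9 fibroblast markers were all lower in the knockdown than in TNF-treated control cells. The log2 of their summed signal ran from 15.83 to 15.94 in unstimulated, 15.73 to 15.91 in TNF-treated control and 15.56 to 15.62 in knockdown cells. Of these markers, 0 were called in the knockdown without the block (3 had an unadjusted p under 0.05) and Col3a1, Pdgfra and S100a4 were called lower with it. The 6 leukocyte markers measured lay between 9.64 and 9.76 on that scale and the 7 epithelial and endothelial markers between 10.04 and 10.20. The 7 neural markers ran from 10.64 to 10.67 in unstimulated, 10.55 to 10.59 in TNF-treated control and 10.45 to 10.53 in knockdown cells, and Map2 was the only neural marker called, lower with the block. The part of these shifts in the remodeller values below was not tested.

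Few of the 41 genes were called in any comparison. Without the block, 0 of 41 were called in any comparison, whether higher or lower. The t statistic that the methods name for induced genes, with a difference over 0.35, gave 0 after TNF-α. That count was fixed by the cut-off, as 0 of the 41 exceeded 0.3 in size, where 1.51% of all genes did. The share of all genes passing the methods' rule was not counted. By their rule for genes that depend on or are inhibited by BAF, a difference over 0.3 with no test, 1 of 41 passed in the knockdown, Hltf, where 5.14% of all genes did. With the block, Smarca1 was called lower in the knockdown, and Hltf was called higher only against unstimulated control cells. The 95% intervals of all 41 differences lay inside 2-fold in every comparison, with or without the block, as did 97.7% to 99.6% of all genes.

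**Figure D1:**
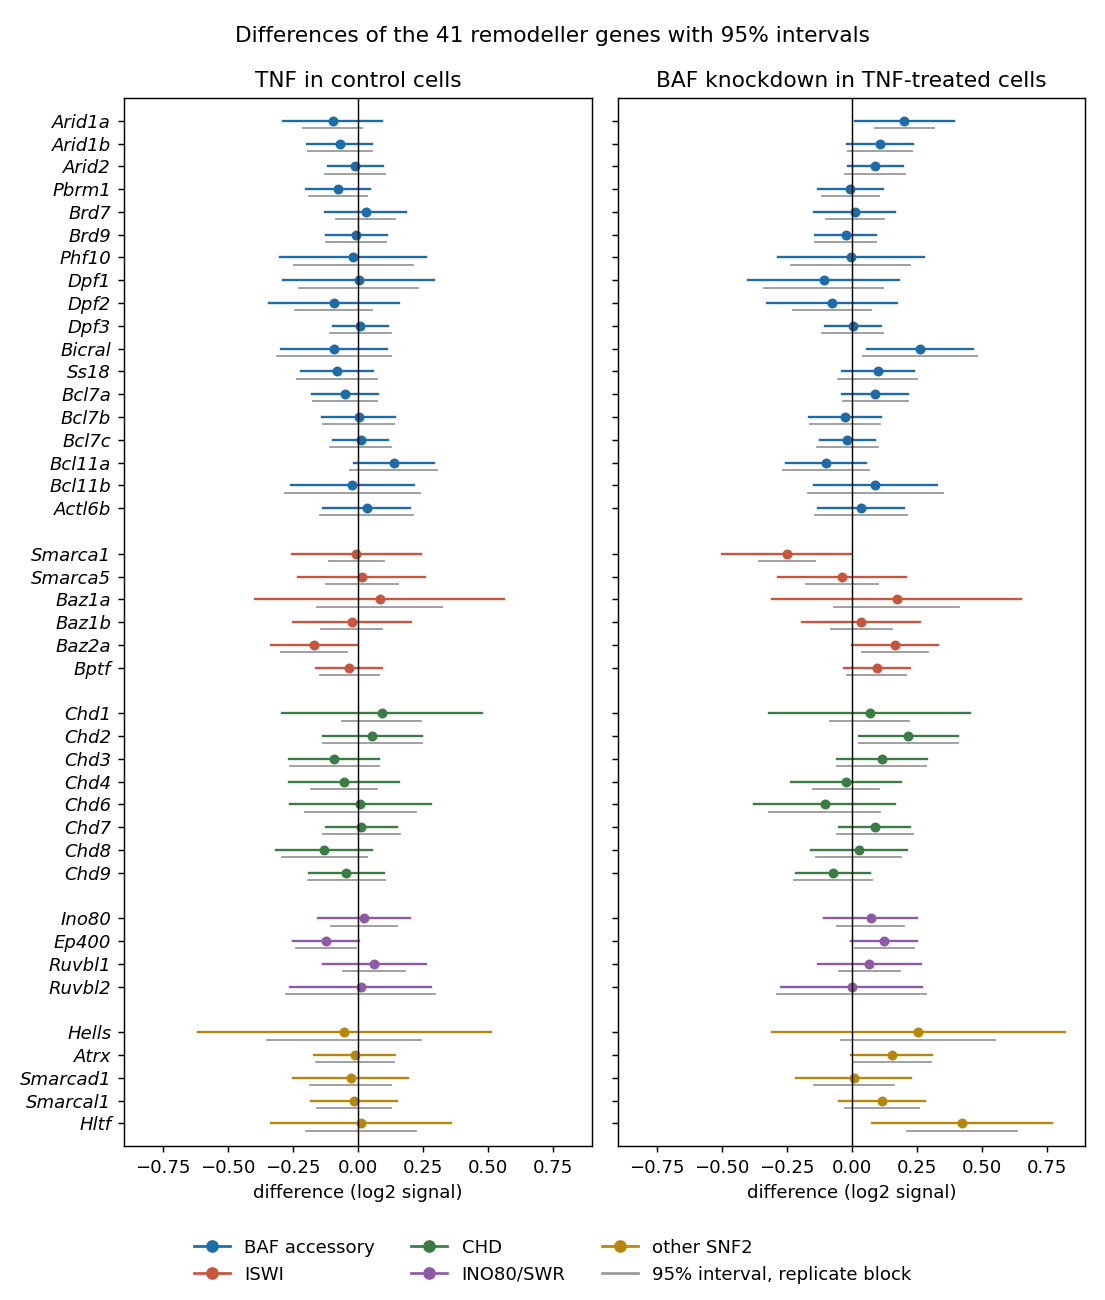
Fitted differences on the log2 signal scale (x axis) for each of the 41 remodeller genes (y axis, coloured by family), with TNF-treated minus unstimulated control cells on the left and TNF-treated cells with minus without the knockdown on the right. Coloured bars are 95% intervals of limma over 3 arrays per group and grey bars those of the fit with the replicate block. Hltf lies farthest to the right in the knockdown at 0.42, Smarca1 farthest to the left at -0.25, and Hells has the widest interval.

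After 1 h of TNF-α none of the 41 genes passed the test. Limma called 0 of 41, where 0.137% of all genes were called, and 0 of 41 with the block, where 0.396% were. At an unadjusted p under 0.05 it found 1 of 41, Baz2a, where the share of all genes was 3.07%. The difference exceeded 0.3 in size for 0 of the 41, and for 1.51% of all genes. Their median difference was -0.012, against -0.0020 over all genes, and 17 of 41 lay above 0. The intervals lay inside 1.41-fold (0.5 on the log2 scale) for 39 of the 41, all but Baz1a and Hells, and for 94.1% of all genes.

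Groups did not overlap after TNF-α for 3 of 41, all lower, where 5.97% of all genes separated in either direction. They were Arid1b, Baz2a and Chd8. Baz2a, which encodes the large subunit of the ribosomal DNA silencing complex NoRC, read 9.59, 9.64 and 9.76 on unstimulated and 9.42, 9.54 and 9.53 on TNF-treated control arrays. The treated values all lay below the unstimulated ones. The difference of -0.17 ± 0.07 did not pass the test (limma adjusted p = 1, blocked 0.683).

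Chd8, a CHD motor known as an inhibitor of β-catenin signalling, read 10.37, 10.21 and 10.20 before and 10.18, 10.12 and 10.09 after TNF-α (-0.13 ± 0.08, limma adjusted p = 1). Its unstimulated array 1 stood above the other two. Ep400, the motor of the Tip60 acetyltransferase complex, read 10.41, 10.37 and 10.42 before and 10.29, 10.18 and 10.37 after (-0.12 ± 0.06, limma adjusted p = 1), and here the groups met at their edges. Bcl11a, a zinc finger protein of BAF best known in neurons and blood cells, read 8.01, 7.82 and 8.01 before and 8.07, 8.18 and 8.01 after (0.14 ± 0.07, limma adjusted p = 1). Hells, a motor needed for DNA methylation, had the largest difference among the other SNF2 genes at -0.05 ± 0.25, which is small beside its own spread.

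Differences with the knockdown in TNF-treated cells were somewhat wider. Limma called 0 of 41, where 0.137% of all genes were called, and with the block 1 of 41, where 3.31% were. At an unadjusted p under 0.05 there were 6 of 41 against 8.43% of all genes, and 5 of these 6 were higher, where 3.69% of all genes were higher. Groups did not overlap for 7 of 41 against 10.1% of all genes. All 7 were higher (Arid1a, Arid2, Bicral, Baz2a, Chd2, Smarcal1 and Hltf), a direction in which 4.63% of all genes separated. The difference exceeded 0.3 for 1 of 41, Hltf, and for 5.14% of all genes.

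The median difference with the knockdown was 0.07 over the 41, against 0.0088 over all genes, and 28 of 41 lay above 0 against 54.5% of all genes. It moved to 0.015 without TNF-treated control array 2, to 0.026 without knockdown array 1 and to 0.022 with array weights, so it rests in part on single arrays. With array 2 of the knockdown left out it was 0.10. The intervals lay inside 1.41-fold for 38 of 41, all but Baz1a, Hells and Hltf, and for 90.2% of all genes. They lay inside 1.23-fold (0.3 on the log2 scale) for 27 of 41 and for 69.7% of all genes.

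Hltf, a SNF2 motor and ubiquitin ligase that remodels stalled replication forks, had the largest difference of the 41. It read 8.87, 8.60 and 8.90 on unstimulated control arrays, 8.82, 8.71 and 8.87 on TNF-treated control arrays, and 9.20, 8.91 and 9.57 on knockdown arrays (transcript cluster 10491014). Every knockdown array lay above all 6 control arrays. The lowest knockdown value, on array 2, was also the one nearest to the controls, and the highest was on array 3. Smarca4 was least reduced on array 2 of the knockdown and most reduced on array 3. Array 2 was also the lowest and array 3 the highest for Hltf in both control groups, so this order was not particular to the knockdown. With 3 arrays this is a description of single values.

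The knockdown mean of Hltf was 9.23 ± 0.33 (SD, n = 3) and that of TNF-treated control cells 8.80 ± 0.08. The difference of 0.42 ± 0.15, or 1.34-fold, did not pass the test in either fit (limma adjusted p = 0.451, blocked 0.0534). Without knockdown array 3 it was 0.25 (0.30 with the block), and without knockdown array 2 it was 0.58 (0.51 with the block). The latter was the only 1 of 9 blocked fits with an array left out that called it (limma adjusted p = 0.0195). Against unstimulated control cells, where treatment and knockdown differ together, it was 0.44 ± 0.15 and was called with the block (limma adjusted p = 0.284, blocked 0.0349). That call was kept in 4 of 9 blocked fits that each left out 1 array, those without TNF-treated control array 2 or 3 or without knockdown array 2 or 3. It was lost without any of the 3 unstimulated arrays (limma blocked adjusted p = 0.115, 0.118 and 0.159 for arrays 1, 2 and 3), without TNF-treated control array 1 (0.0829) and without knockdown array 1 (0.119). The difference stayed above 0 in all 9, from 0.31 to 0.52.

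Smarca1 was the only member called in the knockdown, and only with the block. It encodes Snf2l, an ISWI motor of the NURF complex that is best known in neurons. Its signal was 5.92, 6.18 and 5.92 on unstimulated control arrays, 5.92, 6.17 and 5.91 on TNF-treated control arrays and 5.71, 5.92 and 5.63 on knockdown arrays (transcript cluster 10604347). Array 2 was the highest in all 3 groups, and within each number the knockdown array was the lowest. The knockdown and control groups overlapped, since knockdown array 2 reached the level of control arrays 1.

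The difference of Smarca1 was -0.25 ± 0.11 without the block and -0.25 ± 0.05 with it (limma adjusted p = 0.590 and 0.0301). Against unstimulated control cells it was -0.25 as well (limma adjusted p = 0.405, blocked 0.0191). In the TNF-treated comparison only 1 of 9 blocked fits with an array left out kept the call, the one without knockdown array 2. The limma blocked adjusted p ran up to 0.165 in the others, which left out every other array in turn. Against unstimulated cells 3 of 9 kept it, those without TNF-treated control array 2 or 3 or without knockdown array 2. The highest Smarca1 value lay below the first quartile of every array (6.38 to 6.46), and only 6 of its 9 values were distinct. Whether this signal exceeded background was not tested.

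**Figure D2:**
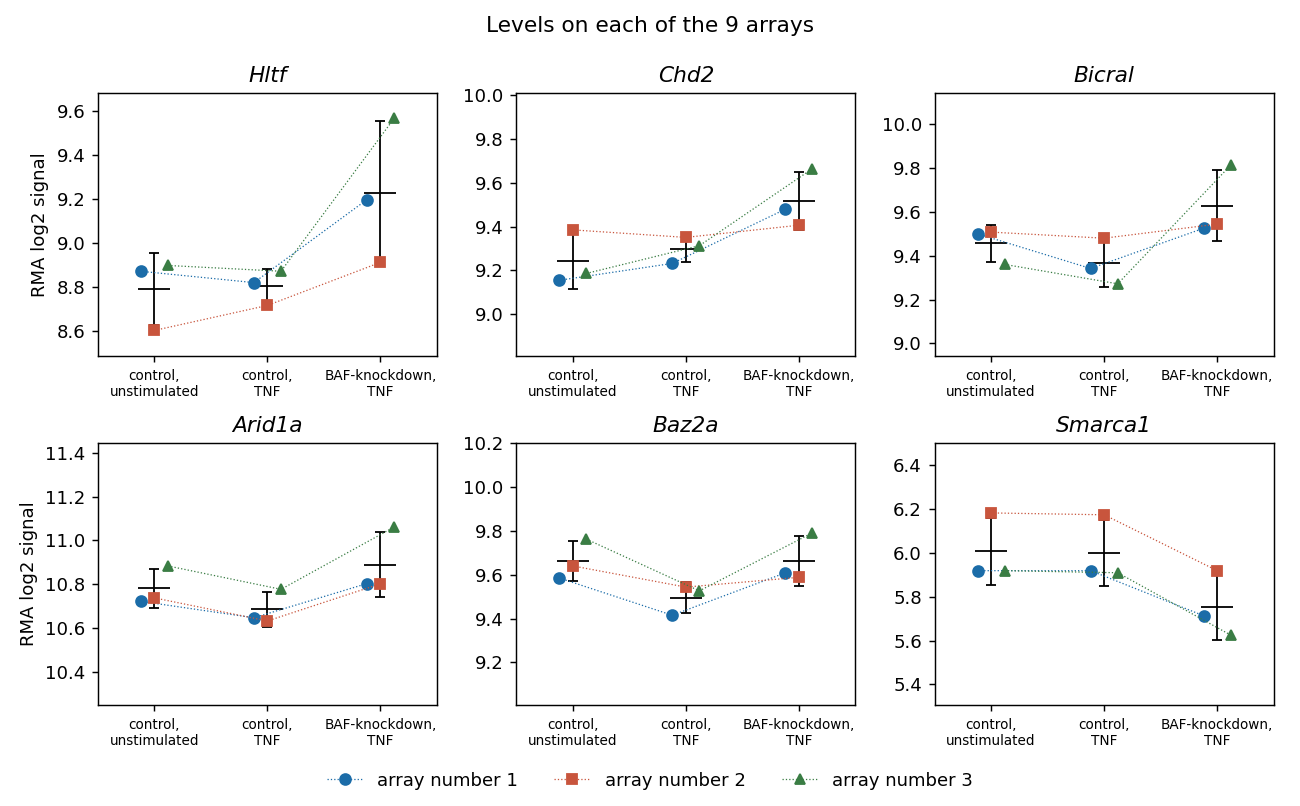
RMA log2 signal (y axis) on each of the 9 arrays for 6 remodeller genes, by group (x axis) and array number (symbol, joined by dotted lines), with horizontal bars at group means and error bars of 1 SD (n = 3). All panels span the same range of log2 units, and the knockdown arrays of Hltf lie at 9.20, 8.91 and 9.57, above all 6 control arrays, while those of Smarca1 lie lowest within each array number.

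Promoter sequence of these 2 genes is shown because they were the members called with the block on all 9 arrays, and because the study sorts promoters by CpG content. Capitals mark CpG dinucleotides in RefSeq windows of 300 bases (GRCm38.p6), from 250 before to 50 after an annotated start, each written 5′ to 3′ on the strand of the gene. Hltf has a pair of such windows on chromosome 3 and the first is printed, at chr3:20057561-20057860 on the plus strand. The Smarca1 window is at chrX:47892564-47892863 on the minus strand.
Hltf: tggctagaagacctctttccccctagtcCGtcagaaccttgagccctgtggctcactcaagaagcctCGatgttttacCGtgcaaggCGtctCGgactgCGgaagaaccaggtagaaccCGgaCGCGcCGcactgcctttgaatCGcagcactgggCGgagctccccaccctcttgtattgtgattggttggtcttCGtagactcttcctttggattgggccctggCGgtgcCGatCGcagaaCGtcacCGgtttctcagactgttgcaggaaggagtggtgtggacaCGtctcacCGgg
Smarca1: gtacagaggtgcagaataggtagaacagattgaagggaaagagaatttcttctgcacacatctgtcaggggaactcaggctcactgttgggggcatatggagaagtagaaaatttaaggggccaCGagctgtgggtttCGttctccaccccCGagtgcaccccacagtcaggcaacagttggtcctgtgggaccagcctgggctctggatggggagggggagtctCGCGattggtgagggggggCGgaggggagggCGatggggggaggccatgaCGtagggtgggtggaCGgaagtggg

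The windows are alike in base composition and unlike in CpG. Hltf had 58.0% G and C with 20 CpG, an observed to expected ratio of 0.793, and Smarca1 had 58.7% G and C with 9 CpG, a ratio of 0.406. Of the 41 genes, 32 had a window in the table. By thresholds of over 50% G and C and a ratio over 0.6, which the study set on a different window around the start, 27 of the 32 had a CpG-rich window, against 52.4% of the 15426 genes on the array with one. The 5 without were Atrx, Bcl11b, Ruvbl1, Ruvbl2 and Smarca1. Among these only Smarca1 was called with the block. A match to the NF-κB motif on either strand occurred in 6 of 32 (Baz1b, Bcl11a, Bcl7b, Bptf, Chd4 and Hltf), against 11.0% of genes with a window. The AP-1 motif, TGACTCA or TGAGTCA on either strand, occurred in 0 of 32, against 5.43%. A match is a description of letters, and the 6 genes differed by -0.05 (Chd4) to 0.14 (Bcl11a) after TNF-α, none of them called.

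**Figure D3:**
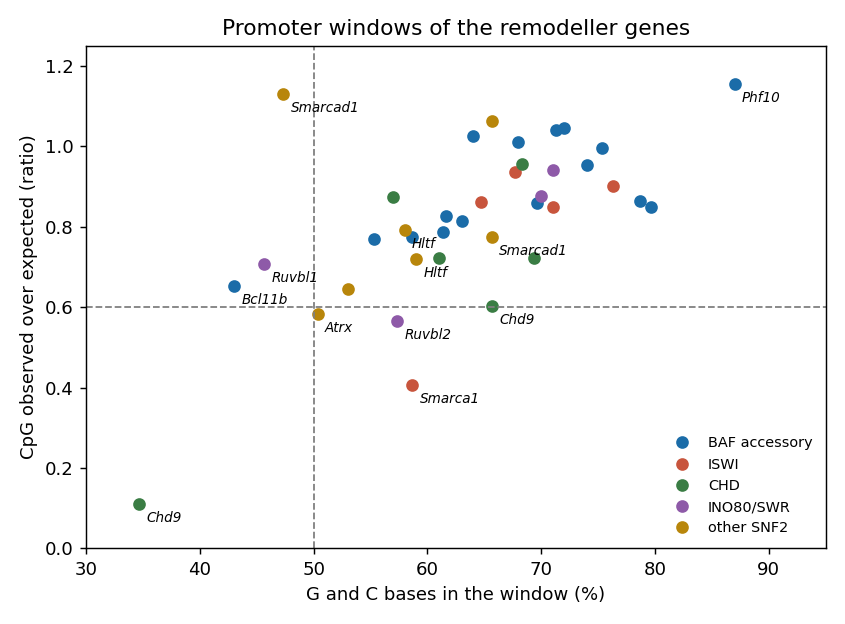
Share of G and C bases (x axis, %) and the ratio of observed to expected CpG (y axis) in RefSeq promoter windows of the remodeller genes, 1 point per window, coloured by family. Dashed lines mark 50% and 0.6, and Smarca1 lies below the ratio line at 0.406 while both Hltf windows lie above it.

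Among accessory BAF subunits, 10 of 18 lay above 0 in the knockdown and the median difference was 0.0086, near that of all genes. Their differences ran from -0.11 for Dpf1 to 0.26 for Bicral. Bicral, a paralogue of the subunit that marks non-canonical BAF, read 9.34, 9.48 and 9.27 on TNF-treated control arrays and 9.53, 9.54 and 9.81 on knockdown arrays, after 9.50, 9.51 and 9.36 in unstimulated cells. The knockdown arrays lay above both control groups, arrays 1 and 2 by a small margin and array 3 by more. The difference of 0.26 ± 0.09 did not pass the test (limma adjusted p = 0.418, blocked 0.262).

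Arid1a, the DNA-binding subunit of canonical BAF, read 10.72, 10.74 and 10.88 on unstimulated, 10.65, 10.63 and 10.78 on TNF-treated control and 10.80, 10.80 and 11.06 on knockdown arrays. Array 3 was the highest in each group, and every knockdown array lay above all 3 TNF-treated control arrays. The difference of 0.20 ± 0.08 narrowed its error to 0.05 with the block and still missed the threshold (limma adjusted p = 0.541, blocked 0.0780). Its paralogue Arid1b differed by 0.11 ± 0.06, and the PBAF counterpart Arid2 by 0.09 ± 0.05. Knockdown arrays of Arid2 read 11.15, 11.20 and 11.23, above TNF-treated control arrays at 11.13, 11.12 and 11.06. Its unstimulated arrays, at 11.12, 11.15 and 11.07, overlapped the knockdown arrays.

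The other PBAF subunits stayed close to 0, at -0.0041 for Pbrm1, 0.01 for Brd7 and -0.0032 for Phf10, and so did Brd9 of the non-canonical form at -0.02. The DPF proteins, which read histone acylation, lay at -0.11 for Dpf1, -0.07 for Dpf2 and 0.0050 for Dpf3. Ss18, Bcl7a, Bcl7b and Bcl7c lay at 0.10, 0.09, -0.02 and -0.02. Subunits better known from neurons or lymphocytes lay at -0.10 (Bcl11a), 0.09 (Bcl11b) and 0.04 (Actl6b). None of these was called in either fit. Dpf3 and Actl6b had mean signals below the median of every array (7.77 to 7.83), as had Smarca1, so a low signal bears on their values as well.

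In the ISWI family, 4 of 6 lay above 0 in the knockdown, with a median of 0.07. Smarca5, which encodes the widely expressed motor Snf2h, differed by -0.04 ± 0.11. Of the non-catalytic partners, Baz1a (the Acf1 subunit) differed by 0.17 ± 0.21, Baz1b (Wstf) by 0.04 ± 0.10 and Bptf (the large NURF subunit) by 0.10 ± 0.06. On TNF-treated control array 2, Baz1a and Baz1b differed from the mean of arrays 1 and 3 by -0.72 and -0.20. In the knockdown these values were -0.26 and -0.15, so the count of 4 of 6 rests in part on that control array. Baz2a stood on knockdown arrays at 9.61, 9.59 and 9.79, above the 3 TNF-treated control values and among the unstimulated ones. Its difference of 0.17 ± 0.07 was as large as the one after TNF-α and opposite in sign, and against unstimulated control cells it was 0 to 2 decimals. Both comparisons share the TNF-treated control arrays, so the pair of opposite values is not independent.

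Ep400 had the same shape. Its knockdown arrays read 10.43, 10.37 and 10.42, almost the unstimulated values (0.13 ± 0.06, limma adjusted p = 0.593). The mean of the TNF-treated control arrays lay below both groups, while TNF-treated control array 3 met their lowest value at 10.37. The other genes of the INO80/SWR family lay at 0.07 for Ino80, 0.07 for Ruvbl1 and 0.00012 for Ruvbl2 in the knockdown, so 4 of 4 were above 0, with a median of 0.07. Ruvbl1 and Ruvbl2 are the paired AAA+ ATPases that INO80, SRCAP and Tip60 complexes share.

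In the CHD family, 5 of 8 lay above 0, with a median of 0.05. Chd2, a motor that works at transcribed chromatin, read 9.15, 9.38 and 9.19 on unstimulated, 9.23, 9.35 and 9.31 on TNF-treated control and 9.48, 9.41 and 9.66 on knockdown arrays. Knockdown values all lay above the 6 control values, array 2 by the smallest margin. The difference was 0.22 ± 0.08 against TNF-treated (limma adjusted p = 0.492, blocked 0.283) and 0.27 ± 0.08 against unstimulated control cells (limma adjusted p = 0.209, blocked 0.115). Without knockdown array 2 the blocked fit called it in both, at limma adjusted p = 0.0307 and 0.0126.

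Chd3 and Chd4, the motors of NuRD, lay at 0.12 ± 0.08 and -0.02 ± 0.09. Chd1 lay at 0.07 ± 0.17, Chd6 at -0.10 ± 0.12, Chd8 at 0.03 ± 0.08 and Chd9 at -0.07 ± 0.06. Chd7, the motor altered in CHARGE syndrome, differed by 0.09 ± 0.06 on the cluster used. The annotation assigns 26 clusters to Chd7 alone, which ran from -0.06 to 0.23, and 20 of them lay above 0. The cluster used had a mean signal of 8.76. Those next in signal, at 8.75 and 8.43, differed by -0.01 and -0.0098, and those after them, at 7.70 and 7.69, by 0.13 each. The 20 include dim clusters, such as one with a mean of 5.11 that differed by 0.20. The brightest clusters thus differed in sign, and the count of 20 is weak support for the value of 0.09. The 3 clusters of Pbrm1 ran from -0.0041 to 0.0058 and both of Bptf lay above 0, at 0.10 and 0.23. Smarca5 has 3 further clusters and Ino80 has 12 that the annotation shares with other symbols, which were not used.

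The other SNF2 motors had the highest family median, 0.15, and 5 of 5 lay above 0. Besides Hltf, they were Hells at 0.26 ± 0.25, Atrx at 0.15 ± 0.07, Smarcal1 at 0.12 ± 0.07 and Smarcad1 at 0.0081 ± 0.10, and none was called. On TNF-treated control array 2, Hells and Smarcad1 differed from the mean of arrays 1 and 3 by -0.80 and -0.25. In the knockdown these values were -0.17 and -0.03, so the count of 5 of 5 rests in part on that control array. Atrx, which with Daxx places histone H3.3 at repeats, read 10.54, 10.48 and 10.47 on unstimulated, 10.55, 10.47 and 10.43 on TNF-treated control and 10.67, 10.49 and 10.75 on knockdown arrays. Knockdown array 2 lay among the controls and the other two above them (limma adjusted p = 0.594, blocked 0.352). Smarcal1, which rewinds DNA at stalled forks, stood at 8.94 ± 0.06 (SD, n = 3) in TNF-treated control and 9.06 ± 0.05 in knockdown cells, without overlap.

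Other genes of the same pathways were read beside them. Of 12 BAF ATPase and core genes, 2 lay above 0 in the knockdown and the median was -0.04, with Smarca4 the only one called, lower, in either fit. Of 10 NuRD partners 2 lay above 0 (median -0.04), of 19 INO80/SRCAP partners measured 6 did (-0.04), and of 7 ISWI partners 4 did (0.0090). Of 10 further SNF2 ATPases 8 did, with a median of 0.11. None of the genes in these 4 lists was called in the TNF-treated comparison in either fit. Differences between the lists were not tested.

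**Figure D4:**
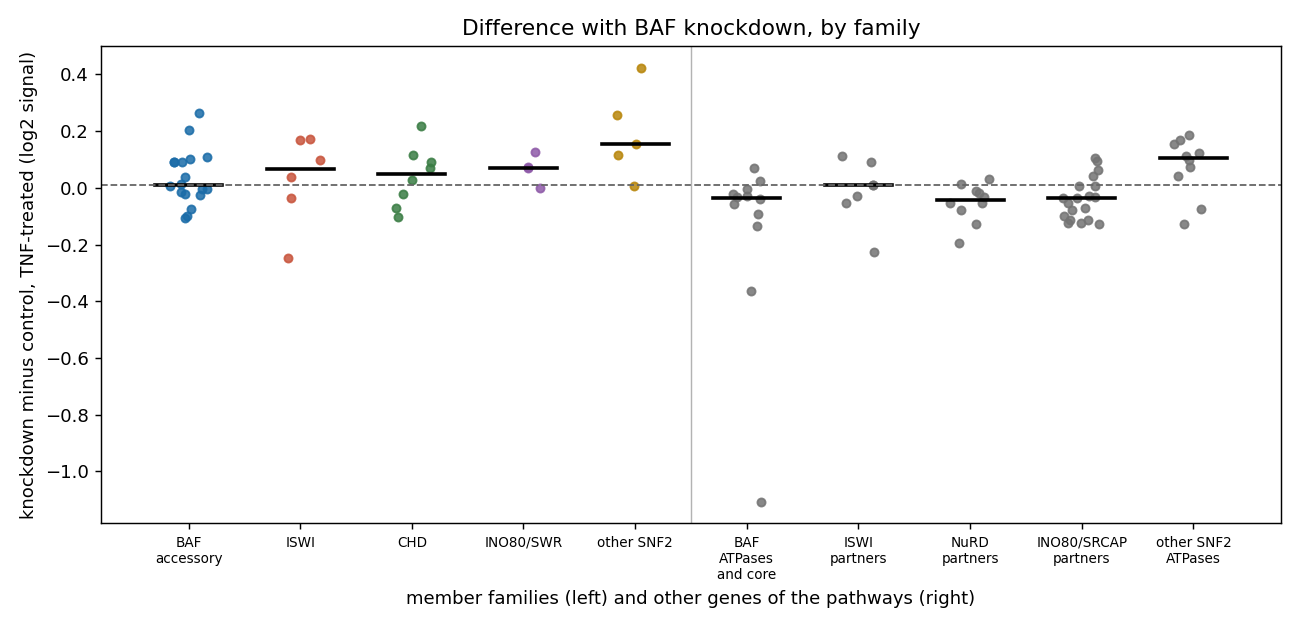
Difference with BAF knockdown in TNF-treated cells on the log2 signal scale (y axis) for the member genes by family (colours, left) and other genes of the same pathways (grey, right), 1 point per gene, with thick bars at list medians and a dashed line at the median of all genes, 0.0088. The other SNF2 motors have the highest median, 0.15, and Smarca4 is the lowest point, at -1.11.

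Set against unstimulated control cells, TNF-treated knockdown cells differ in both treatment and hairpin. Limma called 0 of 41 without the block, where 1.12% of all genes were called, and 2 of 41 with it (Hltf higher and Smarca1 lower), where 5.34% were. At an unadjusted p under 0.05 there were 3 of 41, Chd2 and Hltf higher and Smarca1 lower, against 12% of all genes. Groups did not overlap for 4 of 41 (Bicral, Chd2, Chd7 and Hltf, all higher), against 14% of all genes. A difference over 0.3 was seen for 1 of 41, Hltf, against 6.85% of all genes. The median was 0.026 over the 41 and 0.012 over all genes.

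Of the members with the largest difference of their family there, Baz1a read 9.30, 9.04 and 9.62 on unstimulated and 9.63, 9.40 and 9.70 on knockdown arrays. Each knockdown array was above its same-numbered control, although the groups overlapped (0.26 ± 0.21, limma adjusted p = 0.695, blocked 0.25). Ruvbl1 read 10.82, 10.61 and 10.77 against 11.02, 10.76 and 10.81, again higher within each number and overlapping (0.13 ± 0.09, limma adjusted p = 0.611, blocked 0.228). Bicral and Atrx differed by 0.17 ± 0.09 and 0.14 ± 0.07 (limma adjusted p = 0.515 and 0.469). Among the pathway genes outside the 41, besides Smarca4, Btaf1, a motor that displaces TATA-binding protein, was called higher with the block (0.23, limma blocked adjusted p = 0.0469).

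Several members differed more between replicate numbers than between groups. An F test of the replicate number called 2 of 41, Chd1 and Smarca1, where 3.98% of all genes were called. Hells read 10.48, 9.83 and 10.50 in unstimulated and 10.60, 9.68 and 10.38 in TNF-treated control cells, so array 2 lay 0.66 and 0.80 below the mean of the other two. In knockdown cells, at 10.64, 10.37 and 10.43, that gap was 0.17. Baz1a dropped on array 2 by 0.42, 0.72 and 0.26 in the 3 groups in that order, and Chd1 by 0.32, 0.46 and 0.31.

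Smarca5 was lower on array 2 by 0.26, 0.28 and 0.12, and Smarcad1 by 0.30, 0.25 and 0.03. Smarca1 went the opposite way and was higher on array 2 by 0.26, 0.26 and 0.25. In all, 21 of 41 were lower on array 2 in both control groups, while others, Chd6, Dpf2 and Pbrm1 among them, were higher in both. The same count over all genes was not made, so a drop on array 2 cannot be called particular to these genes. The methods say that replicates were made on different days, without stating that same-numbered arrays of different groups share a day. What lies behind the shared deviations was not tested. The half-widths of the unblocked 95% intervals ran from 0.10 for Bcl7c to 0.56 for Hells, with a median of 0.18. These intervals are not adjusted for the number of genes, so a call needed a larger difference than the half-width. The knockdown interval of Hltf, for instance, ran from 0.08 to 0.77 and Hltf was not called without the block.

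**Figure D5:**
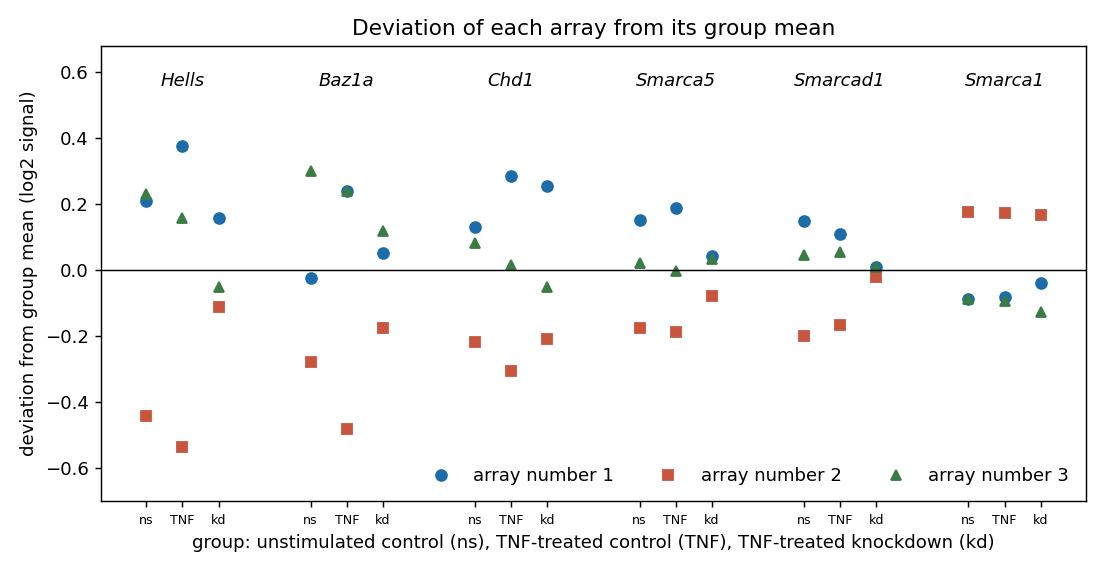
Deviation of each array from its group mean in log2 signal (y axis) for 6 remodeller genes in the 3 groups (x axis), with symbols for the array number. Array 2 lies below 0 in all 3 groups for Hells, Baz1a, Chd1, Smarca5 and Smarcad1 and above 0 for Smarca1.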

How the data were processed

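RNA of 9 arrays (Affymetrix Mouse Gene 1.0 ST) in 3 groups of 3 was compared. The deposited values are log2 signals that the authors made by RMA, which corrects background, quantile normalizes arrays and summarises the probes of each transcript cluster. Quantile normalization removes any shift shared by all genes. Array processing used the affy package of Bioconductor, per the study's reporting summary. For the array annotation the genome build is not stated in the sources used here. Arrays carry no read depth, so their number limits the precision.

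Of 27024 clusters, the platform annotation gave 1 symbol to 21319, several to 1430 and none to 4275. The cluster of highest mean represented each of the 930 genes with more than 1, which left 19698 genes. A linear model with 1 mean per group was fitted to the 9 arrays (limma 3.58.1, functions lmFit and eBayes, R 4.3.3), which left 6 residual degrees of freedom. Tests were two-sided, with Benjamini-Hochberg adjustment over all genes. The fit was tested on simulated data with planted differences larger than any of the members' own. That test therefore does not bear on differences as small as theirs.

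The methods place replicates on different days. Deviations of same-numbered arrays from their group means correlated at 0.21 to 0.724, so the numbers were taken to pair arrays and were used as a block (4 residual degrees of freedom). Those of differently numbered arrays correlated at -0.566 to 0.0111, which is no separate evidence, since deviations cancel out within each group. Correlations between arrays were 0.992 to 0.998. The methods call the replicates independent and say nothing more of their cultures, so p-values measure the spread between these arrays.

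Members, lists and the rule for named genes were chosen with earlier results of these data known. Each member is given by array where it was called in either fit, was among the 4 of smallest unadjusted p of a comparison or had the largest difference of its family; others named in passing were chosen after their values were seen. Srcap and Ino80e were not analysed here.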

Additional observations from a re-analysis of the deposited data

How the results depend on the processing

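With the replicate block, 1 member was called lower with the knockdown in TNF-treated cells, and 1 higher and 1 lower against unstimulated control cells, where 0 were called without it; after TNF in control cells the block called 0. Without the block, the members called stayed at 0 in all 3 comparisons under each of these settings: a filter on dim genes, median centring, a second quantile normalization, the mean of all clusters, array weights, an intensity trend, only the 2 groups compared, the methods' t-test with and without adjustment (in the knockdown, where the methods set only a difference over 0.3, both were required here), and leaving out each array. Blocked fits without 1 array (an alternative chosen after seeing the data) gave 0 to 2 members higher and 0 to 1 lower against unstimulated cells. With the knockdown in TNF-treated cells the ranges were the same, but only 1 of 9 such fits called any member higher and 1 of 9 any lower. Blocked fits without all arrays of a number gave 0 to 2 higher and 0 lower against unstimulated cells. In TNF-treated cells they gave 0 higher and 0 lower with the knockdown. For the settings other than the block itself, the share of all genes called was not counted. In the reported fit without the block it was 0.137% to 1.12%, so few or no calls among the members were likely in any case. Counts that stayed at 0 therefore cannot be called particular to the members.

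The median difference of the members ranged, with 1 array left out, from -0.045 to 0.0082 after TNF, from 0.015 to 0.10 with the knockdown, and from 0.0090 to 0.064 against unstimulated cells. Array weights gave 0.022 with the knockdown, and a second quantile normalization 0.042 against unstimulated cells. Blocked fits gave -0.030 after TNF without TNF-treated control array 1. With the knockdown they gave 0.041 and 0.046 without TNF-treated control arrays 1 and 2, 0.048 and 0.043 without knockdown arrays 1 and 3, and 0.045 and 0.044 without all arrays numbered 2 and 3. Against unstimulated cells they gave 0.040 and 0.045 without knockdown arrays 1 and 2, and 0.048 without all arrays numbered 1.

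The difference of Hells after TNF turned positive with array weights (0.028), without unstimulated array 1 (0.05) or 3 (0.06; 0.035 with the block) and without TNF-treated control array 2 (0.22; 0.079 with the block), and ran from -0.27 to 0.22 with 1 array left out; the cause was not tested. The number of arrays and the low signal of Smarca1 limit what could be detected.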
